A study of Mus musculus with 4 samples.

Results

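The genes described here are 10 regulators of apoptosis of the BCL2 family, chosen by name. They comprise the effectors *Bax*, *Bak1* and *Bok*, the BH3-only genes *Bad*, *Bid*, *Bcl2l11* and *Bbc3*, and the anti-apoptotic genes *Bcl2*, *Bcl2l1* and *Mcl1*. They are 10 of the 16339 genes in the hypothalamus table, each taken as the sum of its RefSeq transcripts. All 10 passed the filter on low counts that left 14344 genes tested. Hypothalamic RNA was sequenced for male C57BL/6 mice that were given a Western diet (WD), made up of 60% fat chow and a 30% sucrose drink, for 12 weeks from 8 weeks of age. There were 2 libraries from WT littermates (WT WD) and 2 from mice without functional *Tas1r3* (*Tas1r3*-/- WD), the gene of the shared subunit of the sweet and umami taste receptors. The knockout is conventional, so the gene was lost in every tissue and at every age. All 4 libraries are from WD-fed mice and no normal diet library was analysed here, so the values compare genotypes under 1 diet. The labels do not say which mouse gave which library, so p-values measure the spread between these libraries, which may be technical. In bulk tissue, fewer cells of a type and less RNA per cell cannot be told apart.

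BCL2 family proteins decide whether the outer mitochondrial membrane stays intact. BAX and BAK1, the effectors, form pores in it and release cytochrome c, which starts the caspase cascade. The anti-apoptotic members BCL2, BCL-XL (the main product of *Bcl2l1*) and MCL1 bind the effectors and hold them back, while BH3-only proteins sense damage or loss of growth factors and either occupy the anti-apoptotic members or activate the effectors directly. In brain, effector genes such as *Bax* are known to fall from development to adulthood, and BCL-XL and MCL1 are known as survival factors of neurons. Much of the control is on the protein (phosphorylation, cleavage, turnover) and is not seen in RNA. The ratio of *Bax* to *Bcl2* transcripts is a common readout in studies of neuronal death, and the comparison asks whether it and related ratios differed between the genotypes.

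The 4 libraries held between 5874782 and 6273772 estimated counts. A count of 0 allows up to 3 counts, or between 0.485 and 0.524 counts per 1000000 of the library (CPM), and no member was below that limit in any library. *Tas1r3* stood at 35.3 and 27.0 estimated counts (WT WD) against 7.0 and 7.01 (*Tas1r3*-/- WD), with a test that did not pass (log2 fold change -2.13, SE 0.42, edgeR adjusted p = 0.756 by Benjamini-Hochberg). Both libraries labelled *Tas1r3*-/- were below both WT libraries, and the part of the gene that the knockout removes was not checked here. WT WD replicate 2 went against its tissue label. All 12 hypothalamic neuropeptide genes were lowest in it, with a summed level of 58.9 CPM against 1398 to 2022 CPM in the other 3 libraries. All 10 thalamus markers were highest in it (2668 CPM against 351 to 545 CPM), as was the sum of choroid plexus markers (779 CPM against 43.0 to 61.0 CPM) and of red blood cell markers (1959 CPM against 380 to 769 CPM). *Tas1r3*-/- WD replicate 1 held 1456 CPM of anterior pituitary markers against 2.25 to 14.6 CPM elsewhere, and 7 of those 8 markers were at 0 in at least 1 library. For the apoptosis regulators too, WT WD replicate 2 was often at an end of the range: 6 members were highest in it (*Bax*, *Bak1*, *Bok*, *Bad*, *Bcl2l11* and *Bbc3*) and *Bid* was lowest in it. That is 70.0% of members, close to the 68.4% of all genes tested that were highest or lowest in this library. The direction was uneven among members, and the 6 that were highest are all pro-apoptotic. Of the 14344 genes tested, 4848 were highest in it and 4966 lowest. Fold changes of the members and their ratios are given with and without it, and values of a group are those of replicate 1 and then replicate 2.

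*Bax* and *Bcl2* are the pair behind the ratio, and the study used quantitative PCR primers for both. Their sequences are shown because they place the assayed stretch of each transcript. All 4 are written in lower case, 5′ to 3′, with positions on GRCm39 and exons counted on the Ensembl canonical transcript of each gene, both genes being on the minus strand.
*Bax* forward, chr7:45115424-45115443, exon 3: ggcgaattggagatgaactg
*Bax* reverse, chr7:45114633-45114654, exon 4: caaagtagaagagggcaaccac
*Bcl2* forward, chr1:106640084-106640102, exon 1: tcgccctgtggatgactga
*Bcl2* reverse, chr1:106470995-106471013, exon 2: cacttgtggcccaggtatg
The *Bax* pair spans 159 bases of the transcript and matched 14 GENCODE M39 transcripts of 1 gene, with both primers inside the coding sequence. The *Bcl2* pair spans 202 bases, matched 1 transcript, and crosses the long first intron, and its reverse primer runs beyond the last annotated coding base. In the sequencing table both genes have 1 RefSeq transcript each, so their estimated counts were not split between isoforms.

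The mean of each of the 3 effectors was lower in *Tas1r3*-/- WD than in WT WD, but 0 of 3 were called by edgeR (Benjamini-Hochberg adjusted p below 0.05 together with a change of 1.5-fold or more), as were 0.0% of all genes. *Bax* (chr7:45111015-45116325, minus strand), the cytosolic pore former that moves to mitochondria when activated, had 24.7 and 30.4 CPM (WT WD) against 20.9 and 19.1 CPM (*Tas1r3*-/- WD). Both *Tas1r3*-/- libraries lay below both WT libraries, as for 18.9% of all genes, with means of 27.6 ± 4.01 and 20.0 ± 1.26 CPM (SD, n = 2 each). The log2 fold change was -0.46 (SE 0.18, 95% interval -0.94 to 0.013), which is 0.725 of the WT level, with an edgeR p of 0.0544 and a Benjamini-Hochberg adjusted p of 0.756. The direction was kept at -0.30 without WT WD replicate 2, with an edgeR adjusted p of 0.506. *Bax* shares exonic bases with *Gm45808* on its own strand and *Gm73431* on the other, and the counting is not stated to use strand, so a part of its counts could belong to these. The same limit holds for *Bak1*, *Bad*, *Bid*, *Bcl2l11*, *Bcl2* and *Bcl2l1*, which share exonic bases with genes on the other strand.

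*Bak1* (chr17:27238784-27247983, minus strand), the effector that resides on mitochondria, had 18.7 and 22.6 CPM (WT WD) against 17.2 and 16.3 CPM (*Tas1r3*-/- WD). It too was lower in both *Tas1r3*-/- libraries, by a smaller step, with a log2 fold change of -0.30 (SE 0.19, 95% interval -0.79 to 0.19) and an edgeR adjusted p of 0.760. Left with WT WD replicate 1 alone, it was -0.16. *Bok* (chr1:93613193-93623498, plus strand) encodes a relative of BAX and BAK1 that is found largely at the endoplasmic reticulum. *Bok* stood at 62.4 CPM in WT WD replicate 2, the library high in thalamus and choroid plexus markers, against 15.6 CPM in WT WD replicate 1 and 13.3 and 18.8 CPM in *Tas1r3*-/- WD. The WT replicates thus differed more from each other than WT WD replicate 1 differed from either *Tas1r3*-/- library, and the groups overlapped. The log2 fold change of *Bok* was -1.28 (SE 0.67, 95% interval -3.02 to 0.45, edgeR adjusted p = 0.756) and became 0.033 without WT WD replicate 2. The part of the thalamus and choroid plexus markers in the *Bok* value was not tested.

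**Figure D1:**
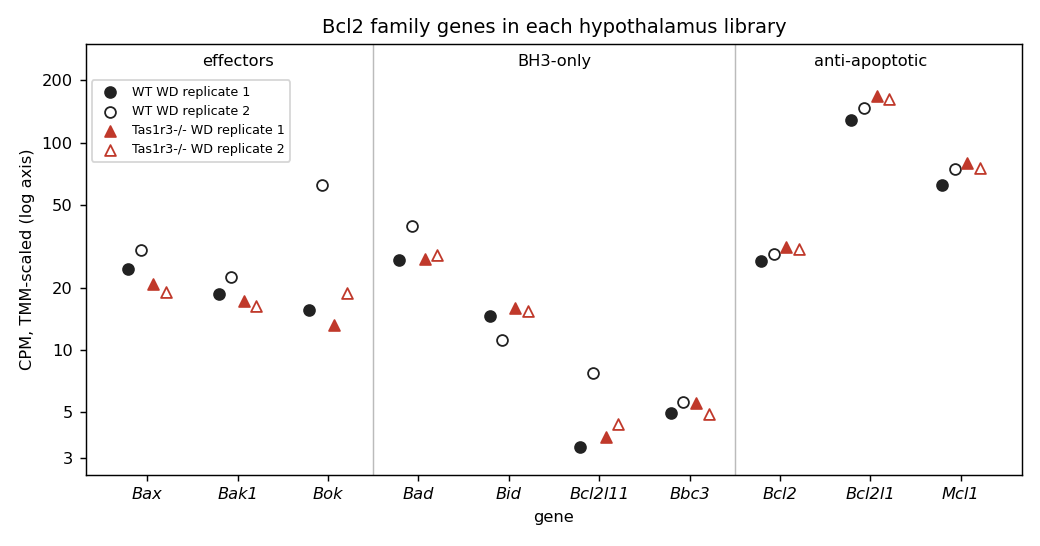
Level of each of the 10 genes in each library, in CPM on a log axis, grouped by role. Circles are the 2 WT WD libraries and triangles the 2 *Tas1r3*-/- WD libraries. Both triangles lie below both circles for *Bax* and *Bak1* and above them for *Bid* and for all 3 anti-apoptotic genes, and the open circle of *Bok* (62.4 CPM) stands alone.

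The 4 BH3-only genes showed no common direction with all libraries. With WT WD replicate 1 as the only WT library, all 4 log2 fold changes were above 0, from 0.050 (*Bad*) to 0.26 (*Bcl2l11*). *Bad* (chr19:6918902-6929280, plus strand), whose product binds BCL2 and BCL-XL unless survival kinases phosphorylate it, had 27.2 and 39.7 CPM (WT WD) against 27.6 and 28.9 CPM (*Tas1r3*-/- WD). The 2 *Tas1r3*-/- libraries lay between the WT libraries, close to WT WD replicate 1. Its log2 fold change was -0.25 (SE 0.22, 95% interval -0.82 to 0.33, edgeR adjusted p = 0.788) and 0.050 without WT WD replicate 2. *Bid* (chr6:120862525-120894171, minus strand), which links death receptors to mitochondria once caspase 8 cuts it, was the 1 pro-apoptotic gene with both *Tas1r3*-/- libraries above both WT libraries. It had 14.6 and 11.1 CPM (WT WD) against 15.9 and 15.4 CPM (*Tas1r3*-/- WD). The log2 fold change of *Bid* was 0.28 (SE 0.22, 95% interval -0.29 to 0.85, edgeR adjusted p = 0.774) and 0.10 without WT WD replicate 2.

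*Bcl2l11* (chr2:127967958-128004476, plus strand) encodes BIM, the BH3-only protein that neurons raise on loss of growth factors. It was the lowest member per length, at 3.41 and 7.72 CPM (WT WD) against 3.81 and 4.38 CPM (*Tas1r3*-/- WD). Both *Tas1r3*-/- libraries lay between the WT libraries. The log2 fold change of *Bcl2l11* was -0.44 (SE 0.48, 95% interval -1.69 to 0.81, edgeR adjusted p = 0.819) and turned to 0.26 without WT WD replicate 2. *Bbc3* (chr7:16042318-16052130, plus strand), which encodes PUMA, a target of p53, had 4.94 and 5.62 CPM (WT WD) against 5.57 and 4.90 CPM (*Tas1r3*-/- WD). The 2 groups covered nearly the same range, and the log2 fold change was -0.0063 (SE 0.30, 95% interval -0.79 to 0.77, edgeR adjusted p = 0.998), or 0.082 without WT WD replicate 2. *Bcl2l11* and *Bbc3* rest on the fewest reads of all members, 19.8 to 46.9 and 27.9 to 34.7 estimated counts per library.

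All 3 anti-apoptotic genes were higher in both *Tas1r3*-/- libraries than in both WT libraries, which 20.6% of all genes were, and 0 of 3 were called. *Bcl2* (chr1:106465908-106642060, minus strand), the founding member of the family, had 27.0 and 29.2 CPM (WT WD) against 31.5 and 30.7 CPM (*Tas1r3*-/- WD). The group means were 28.1 ± 1.52 and 31.1 ± 0.560 CPM (SD, n = 2 each), with a log2 fold change of 0.15 (SE 0.15, 95% interval -0.23 to 0.53, edgeR adjusted p = 0.803). *Bcl2l1* (chr2:152622582-152673655, minus strand), the most abundant member, had 129 and 148 CPM (WT WD) against 168 and 163 CPM (*Tas1r3*-/- WD). Its log2 fold change was 0.26 (SE 0.14, 95% interval -0.10 to 0.61, edgeR adjusted p = 0.756), and it made up 58.7% to 60.5% of the anti-apoptotic counts in every library. *Mcl1* (chr3:95566026-95570487, plus strand), whose product turns over quickly, had 62.7 and 74.8 CPM (WT WD) against 80.3 and 75.6 CPM (*Tas1r3*-/- WD). WT WD replicate 2 came close to the lower *Tas1r3*-/- library for this gene, and the log2 fold change was 0.18 (SE 0.14, 95% interval -0.19 to 0.55, edgeR adjusted p = 0.774). For each of the 3 genes, the step between the nearest libraries of the groups was smaller than the gap between the WT replicates. Leaving out WT WD replicate 2 raised each value, to 0.21 for *Bcl2*, 0.36 for *Bcl2l1* and 0.31 for *Mcl1*.

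In total, edgeR called 0 of the 10 genes and 0.0% of all genes tested. At an unadjusted p under 0.05, edgeR counted 0 of 10 against 5.38% of all genes, and DESeq2 called 0 of 10 against 0.0637% of the genes it tested. The groups did not overlap for 6 of 10 members (lower in *Tas1r3*-/- WD for *Bax* and *Bak1*, higher for *Bid*, *Bcl2*, *Bcl2l1* and *Mcl1*). This happened for 39.5% of all genes, 18.9% lower and 20.6% higher. Without WT WD replicate 2, both *Tas1r3*-/- libraries were on 1 side of WT WD replicate 1 for 8 of 10 members, below it for *Bax* and *Bak1* and above it for *Bad*, *Bid*, *Bcl2l11*, *Bcl2*, *Bcl2l1* and *Mcl1*, against 75.0% of all genes (37.3% below and 37.6% above). The 8 of 10 is thus near the background. The median log2 fold change was -0.46 for effectors, -0.13 for BH3-only genes and 0.18 for anti-apoptotic genes, beside -0.0057 for all genes. These medians were -0.16, 0.092 and 0.31 without WT WD replicate 2, beside 0.0020 for all genes. Fits that leave out 1 library keep a lone library in a group and assume that it varies like the other group. Without WT WD replicate 1, so with the library that went against its tissue label as the only WT sample, edgeR called *Bax* (-0.60, adjusted p = 0.0330) and *Bok* (-1.96, adjusted p = 7.71e-05). In the fits that left out another library, the edgeR adjusted p ran from 0.506 to 0.99998 for *Bax* and from 0.968 to 0.99998 for *Bok*. Without WT WD replicate 1, 14.3% of all genes were called, and without WT WD replicate 2 it was 0.217% of genes and 0 members.

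**Figure D2:**
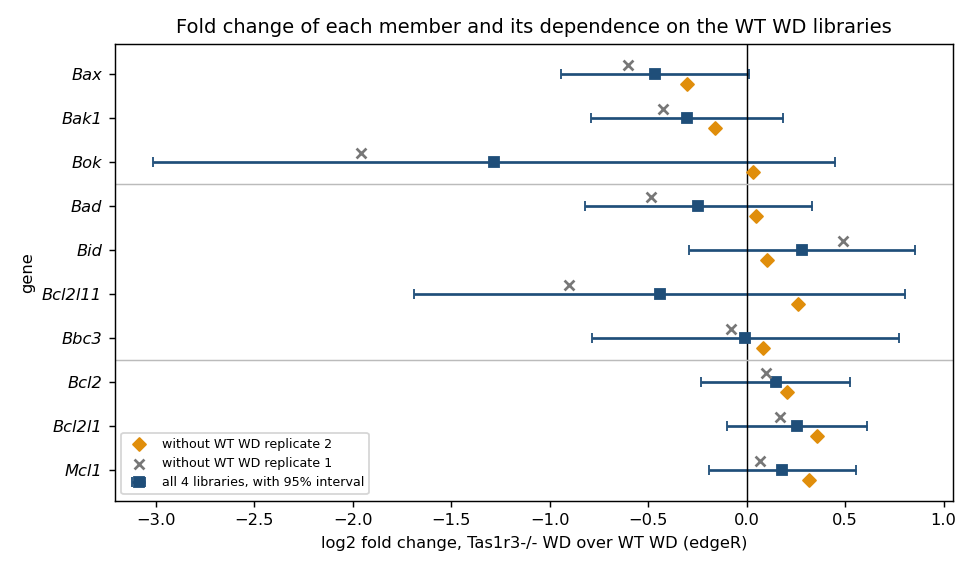
Log2 fold change of each gene, *Tas1r3*-/- WD over WT WD, from edgeR. Squares with bars give the value from all 4 libraries with its 95% interval, diamonds the value without WT WD replicate 2 and crosses the value without WT WD replicate 1. Every bar spans 0, and the diamonds of *Bok* (0.033), *Bad* (0.050), *Bcl2l11* (0.26) and *Bbc3* (0.082) lie on the other side of 0 from their squares.

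**Figure D3:**
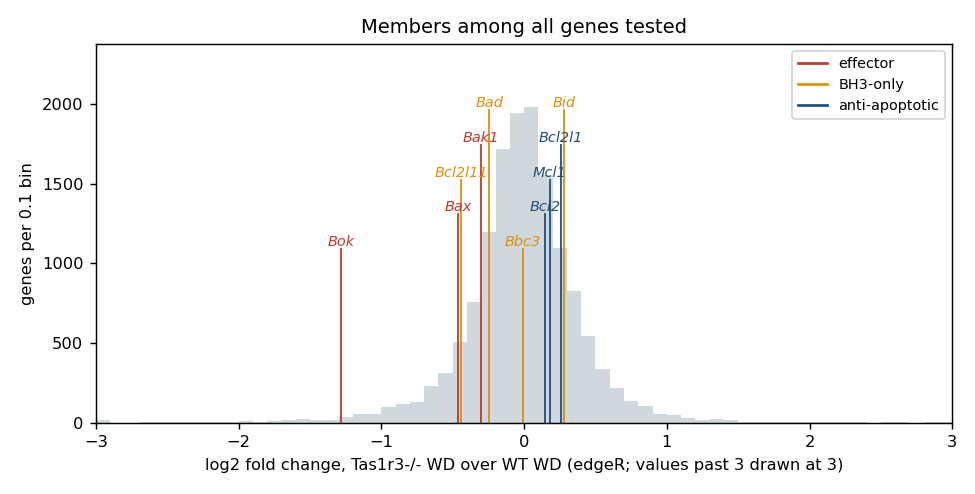
Number of genes tested in each bin of 0.1 of log2 fold change, *Tas1r3*-/- WD over WT WD from edgeR, as grey bars, with a line for each of the 10 genes coloured by role. Line heights carry no value. The anti-apoptotic genes lie between 0.15 and 0.26, inside the bulk of all genes, and *Bok* at -1.28 lies farthest from 0.

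Ratios taken within a library do not depend on scaling between libraries. They are ratios of estimated counts of transcripts of different length, so only their change between libraries can be read. The ratio of *Bax* to *Bcl2* was 0.916 in WT WD replicate 1 (95% interval 0.726 to 1.16) and 1.04 in WT WD replicate 2 (0.846 to 1.29). It was 0.662 in *Tas1r3*-/- WD replicate 1 (0.527 to 0.832) and 0.621 in *Tas1r3*-/- WD replicate 2 (0.486 to 0.796). Both *Tas1r3*-/- libraries were below both WT libraries, by -0.61 on the log2 scale or 0.656 of the WT ratio, and the gap between WT replicates was 0.19. The counting intervals of the nearest libraries overlapped. The exact two-sided permutation test over the 4 libraries gave p = 0.333, which is the smallest p that 2 against 2 allows, so it could not pass the threshold at any size of difference. Without WT WD replicate 2 the difference was -0.51. Intervals here are exact Clopper-Pearson intervals converted to ratios and cover counting error only.

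Ratios of sums over roles also placed both *Tas1r3*-/- libraries below both WT libraries. The 7 pro-apoptotic genes over the 3 anti-apoptotic genes gave 0.5001 and 0.714 (WT WD) against 0.373 and 0.4005 (*Tas1r3*-/- WD), with -0.63 as the log2 difference. Set against WT WD replicate 1 alone (95% interval 0.454 to 0.5504), both *Tas1r3*-/- libraries remained below it beyond counting error (0.340 to 0.408 and 0.364 to 0.440), with a difference of -0.37. These intervals leave out the spread between libraries, which 1 WT library cannot measure. Put as shares, the anti-apoptotic genes took 66.7% and 58.3% (WT WD) against 72.8% and 71.4% (*Tas1r3*-/- WD) of the counts of all members. In summed CPM, the anti-apoptotic genes had 219 and 252 (WT WD) against 280 and 269 (*Tas1r3*-/- WD). The pro-apoptotic genes had 109 and 180 against 104 and 108, and the BH3-only genes 50.2 and 64.2 against 52.9 and 53.6. Against WT WD replicate 1, the anti-apoptotic sum thus differed more than the pro-apoptotic sum. The BH3-only sum was higher than in that library. The anti-apoptotic gene *Bcl2l2* is not a member and enters none of these sums or ratios. It had 110 and 162 CPM (WT WD) against 112 and 112 CPM (*Tas1r3*-/- WD), and ratios that include it were not computed. The effectors over the anti-apoptotic genes gave 0.270 and 0.459 (WT WD) against 0.184 and 0.201 (*Tas1r3*-/- WD). That log2 difference was -0.87 with all libraries and -0.49 without WT WD replicate 2, and it was -0.61 with all libraries when *Bok* was left out, an alternative chosen after seeing the data. The BH3-only genes over the anti-apoptotic genes gave 0.230 and 0.255 (WT WD) against 0.189 and 0.199 (*Tas1r3*-/- WD), a difference of -0.32, or -0.24 without WT WD replicate 2. This was the smallest of the 4 differences, and its counting intervals overlapped between WT WD replicate 1 and both *Tas1r3*-/- libraries. For each of these 3 ratios the exact permutation p was 0.333, and 0.333 after Benjamini-Hochberg adjustment over the 4 ratios.

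Over the 21 single pairs of a pro-apoptotic with an anti-apoptotic gene, the mean log2 ratio was lower in *Tas1r3*-/- WD for 18. Both *Tas1r3*-/- libraries were below both WT libraries for 14 pairs, above them for 0, and the groups overlapped for 7. Against WT WD replicate 1 alone they were below for 17 and above for 0. These pairs are far from independent, since each gene enters several of them and all share 3 denominators that were higher in *Tas1r3*-/- WD. The background of 39.5% given above is for single genes and does not apply to pairs. No background was computed for pairs or for the ratios above, so whether such counts are unusual was not tested. The 3 pairs with a higher mean ratio in *Tas1r3*-/- WD were those of *Bid*, at 0.036 to 0.15. In these, too, both *Tas1r3*-/- libraries lay below WT WD replicate 1. For the pairs with *Bax*, from -0.61 to -0.72, both *Tas1r3*-/- libraries were below both WT libraries.

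**Figure D4:**
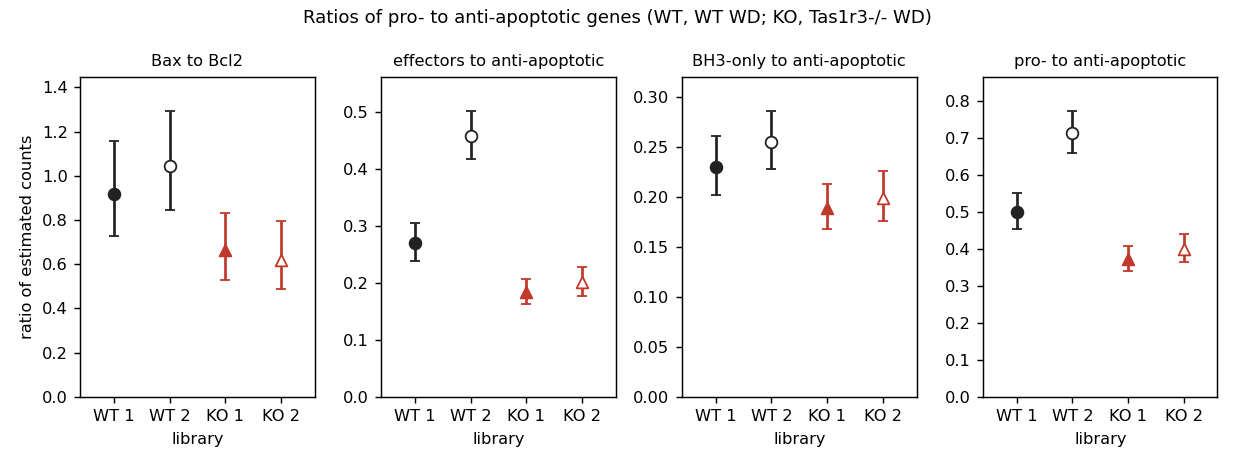
The 4 ratios of pro- to anti-apoptotic estimated counts in each library, on linear axes that start at 0. Bars are 95% exact intervals for counting error. In each panel both *Tas1r3*-/- WD libraries lie below both WT WD libraries, as for *Bax* to *Bcl2*, 0.662 and 0.621 against 0.916 and 1.04.

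Levels can be compared between genes only per length, here as CPM per kilobase of the canonical transcript, averaged over the 4 libraries. *Bcl2l1* was highest at 46.5 (range over libraries 39.5 to 51.3) and did not overlap the next gene. *Bad* (25.99, from 22.9 to 33.4), *Bax* (24.4, from 19.6 to 31.2), *Mcl1* (21.0, from 17.9 to 23.0) and *Bok* (17.9, from 8.63 to 40.6) followed, and neighbours in this order overlapped. *Bok* also overlapped *Bak1* (7.83), and *Bak1* overlapped *Bid* (6.48). *Bcl2* at 4.09, *Bbc3* at 1.96 and *Bcl2l11* at 0.957 closed the order, each below the range of the one before. *Bcl2* therefore had a lower level per length than *Bax* in all libraries (3.73 to 4.35 against 19.6 to 31.2), although their estimated counts were similar, because its canonical transcript is 7247 bases long and that of *Bax* 976. Without WT WD replicate 2 the mean of *Bok* was 10.3 and those of the other 9 genes moved less.

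*Bax*, *Bok*, *Bid*, *Bcl2* and *Mcl1* have 1 RefSeq transcript in the table, and the other 5 genes have 2 to 5. The estimated shares of the *Bcl2l11* transcripts differed between the groups. Transcript NM_009754 took 67.7% of its estimated counts in both WT libraries and 3.32% and 4.17% in *Tas1r3*-/- WD, whereas NM_207680 took 5.15% in both WT libraries and 95.3% and 94.2% in *Tas1r3*-/- WD. In estimated counts, NM_207680 had 1.02 and 2.41 (WT WD) against 22.6 and 23.5 (*Tas1r3*-/- WD), and NM_009754 had 13.4 and 31.7 against 0.789 and 1.04. The groups were fully apart, on at most 31.7 counts per library, and in edgeR on transcripts neither passed (log2 fold changes 3.86 and -4.33, adjusted p = 0.939 for both). The ratio of NM_009754 to the third transcript, NM_207681, was 2.49 in each of the 4 libraries, so these 2 estimates moved in a fixed proportion and are not separate measurements. In both WT libraries NM_009754 also stood at 13.1 times NM_207680, so there all 3 estimates were in fixed proportion. The 3 WT estimates are thus not separate measurements, and the difference in shares between the groups is not read here as a change of transcript use. Whether reads that tell the transcripts apart lie behind the *Tas1r3*-/- shares cannot be told from these values. A fixed proportion was also seen for *Bbc3*, where NM_001382553 stood at 1.49 times NM_001382549 in each library. The sum of *Bcl2l11* does not depend on this split. Its exons overlap *Gm74510* on the same strand.

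For the other genes with several transcripts, most shares overlapped between the groups. The exceptions were minor or low-count transcripts. NM_001355053 of *Bcl2l1* took 1.26% and 2.69% (WT WD) against 3.21% and 4.10% (*Tas1r3*-/- WD). NM_001382549 of *Bbc3* took 18.2% and 35.2% (WT WD) against 17.0% and 1.22% (*Tas1r3*-/- WD), and NM_001382553, in fixed proportion to it, lay apart in the same direction. The non-coding transcript NR_149749 took 24.3% and 67.9% of *Bak1* (WT WD) against 22.8% and 61.7% (*Tas1r3*-/- WD), which is low in both first and high in both second replicates. The *Bad* transcript NM_007522 took 36.4% and 44.9% (WT WD) against 29.9% and 74.0% (*Tas1r3*-/- WD). The main *Bcl2l1* transcript, NM_009743, took 78.3% and 58.7% (WT WD) against 64.9% and 51.2% (*Tas1r3*-/- WD), and the groups overlapped. NM_001289716 of *Bcl2l1* was lowest in WT WD replicate 1 at 4.44% and took 16.7% to 24.5% in the other 3 libraries.

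**Figure D5:**
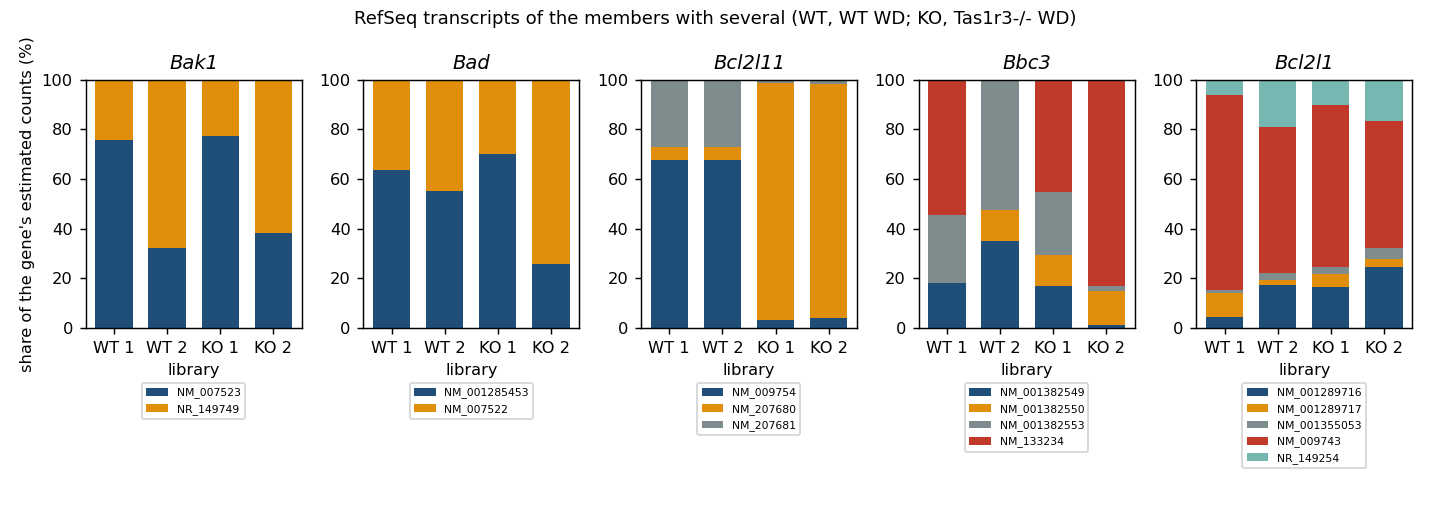
Share of each RefSeq transcript in the estimated counts of its gene, in percent, for the 5 genes with more than 1 transcript, with 1 stacked bar per library. For *Bcl2l11* the bars of the 2 WT WD libraries are alike and those of the 2 *Tas1r3*-/- WD libraries are alike, with NM_207680 at 5.15% in the former and 95.3% and 94.2% in the latter. The *Bcl2l11* estimates of the 2 WT WD libraries were in fixed proportion and are not separate measurements.

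CREB, a transcription factor that the study followed in the same tissue, binds the cAMP response element and is a known activator of *Bcl2*. Promoters of the members were therefore searched from 250 bases before to 50 bases after each RefSeq start on GRCm38.p6, on both strands. The full element TGACGTCA was in 0 of 16 member promoters and in 1.79% of 32851 promoters in all. The half-site TGACG, or CGTCA on the other strand, which the full element contains, was in 3 of 16 member promoters against 20.8% of all, and in 3 of 10 member genes against 23.0% of all genes. The 3 stretches are shown along the gene, 5′ to 3′, with the half-site in capitals and 10 bases on each side.
*Bcl2*, chr1:106714383-106714407, minus strand, half-site from position -107: gaatgaacggTGACGtacgtacagg
*Mcl1*, chr3:95658727-95658751, plus strand, half-site from position 17: tcctcgcctgCGTCAgcacggccct
*Bbc3*, chr7:16309518-16309542, plus strand, half-site from position -55: ggggccctggCGTCAcgcgggggcg
Of the 3 genes, *Bcl2* and *Mcl1* were higher in both *Tas1r3*-/- libraries, as were 20.6% of all genes, while *Bbc3* overlapped between the groups. *Bid* and *Bcl2l1*, which had no match, were higher in both as well. A link of the matches to the levels was not tested. A match describes letters and does not show binding.

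Of 77 other genes of the pathway, 72 were in the table and 67 were tested. By edgeR 0 of 67 were called and 7 had an unadjusted p under 0.05, against 5.38% of all genes. They were higher in *Tas1r3*-/- WD for 34 and lower for 33, did not overlap upward for 19 and downward for 12, and had a median log2 fold change of 0.034, beside -0.0057 for all genes. As background, 7031 of all 14344 genes tested were higher and 7313 lower, and 20.6% did not overlap upward and 18.9% downward. The median was 0.11 without WT WD replicate 2, and in these lists a log2 fold change or median without that library follows the value from all libraries. Of the further BCL2 family genes, 7 were tested. Both *Tas1r3*-/- libraries were above both WT libraries for 0 of them and below for 2 (*Bmf* and *Bnip3*). *Bcl2l2*, which encodes the anti-apoptotic protein BCL-W, had 110 and 162 CPM (WT WD) against 112 and 112 CPM (*Tas1r3*-/- WD). Its groups overlapped, unlike those of the 3 anti-apoptotic members (log2 fold change -0.28, or 0.021 without WT WD replicate 2). *Bmf*, a BH3-only gene, was lower in both *Tas1r3*-/- libraries, at 4.16 and 2.46 CPM against 6.66 and 6.16 CPM (-0.94, SE 0.38, edgeR adjusted p = 0.756), and was at -1.0 without WT WD replicate 2. Among the BH3-only genes *Hrk* and *Pmaip1*, which encodes NOXA, the groups overlapped, with log2 fold changes of -0.10 (-0.37) and 0.55 (0.87). The mitophagy receptors *Bnip3* and *Bnip3l* were at -0.14 (-0.096) and -0.15 (0.15), and *Bcl2l13* at 0.077 (0.21).

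Downstream of the mitochondria, 13 genes of the apoptosome and caspases were tested, of which 5 were higher and 8 lower, with a median of -0.13 (0.0063). *Cycs*, the gene of cytochrome c, had 75.6 and 107 CPM (WT WD) against 75.2 and 76.6 CPM (*Tas1r3*-/- WD). *Htra2*, a mitochondrial protease, had 37.7 and 28.6 CPM against 30.3 and 32.1 CPM. Both genes overlapped between the groups, at -0.27 (0.0063) for *Cycs* and -0.089 (-0.27) for *Htra2*. Of the inhibitors of apoptosis, 3 of 4 tested were higher, with *Birc6* at 114 and 95.1 CPM (WT WD) against 156 and 136 CPM (*Tas1r3*-/- WD). Its log2 fold change was 0.48 with an SE of 0.16 (edgeR adjusted p = 0.756), or 0.35 without WT WD replicate 2. *Xiap*, an inhibitor of caspases, overlapped between the groups, at -0.11 (0.17). Among 9 death receptor genes 7 were higher, beside 7031 of 14344 genes in all. Both *Tas1r3*-/- libraries were above both WT libraries for 3 (20.6% of all genes) and below for 1 (18.9% of all genes). The most abundant were *Tnfrsf21* at 0.25 (-0.14) and *Tnfrsf1a* at -0.034 (-0.30), both overlapping.

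Of 10 genes of p53 and its targets, 8 were higher in *Tas1r3*-/- WD, 7 without overlap (against 20.6% of all genes), and the median log2 fold change was 0.21 (0.25 without WT WD replicate 2). *Zmat3* (75.6 and 74.6 CPM in WT WD, 84.5 and 91.98 CPM in *Tas1r3*-/- WD) and *Mdm4*, an inhibitor of p53 (65.3 and 61.7 CPM, 85.1 and 79.97 CPM), were the most abundant, at 0.23 (0.22) and 0.38 (0.34). *Cdkn1a*, which encodes the cell cycle inhibitor p21 and is named here after its values were seen, had 8.24 and 6.26 CPM (WT WD) against 28.7 and 34.4 CPM (*Tas1r3*-/- WD). For *Cdkn1a* the log2 fold change was 2.12 (SE 0.23, edgeR adjusted p = 0.756). It was 1.93 when WT WD replicate 2 was left out (edgeR adjusted p = 0.0156), and over the fits that left out 1 library the edgeR adjusted p ran from 0.000114 to 0.99998. DESeq2 called it with all libraries, the 1 pathway gene that it called (adjusted p = 8.00e-05). The p53 targets within the BCL2 family showed no common direction. *Bax* was lower in both *Tas1r3*-/- libraries, *Bbc3* was at -0.0063, and *Pmaip1* was at 0.55 (0.87) with overlapping groups.

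Upstream of the BH3-only proteins, 4 of 9 kinase and FOXO genes were higher and 5 lower, with a median of -0.014 (0.11). *Mapk10* and *Mapk9*, both JNK genes, were the most abundant, at -0.22 (-0.025) and 0.10 (0.13). Of the 14-3-3 genes, whose products hold phosphorylated BAD in the cytosol, 2 of 7 were higher, and *Ywhag* and *Ywhah* had log2 fold changes of 0.034 (0.061) and -0.43 (-0.11). Among 4 genes of MCL1 turnover 3 were higher, with the ubiquitin ligase gene *Huwe1* at 477 and 378 CPM (WT WD) against 579 and 544 CPM (*Tas1r3*-/- WD) and the deubiquitinase gene *Usp9x* at 229 and 215 CPM against 312 and 292 CPM. Their log2 fold changes were 0.39 (0.24) and 0.44 (0.40), with an edgeR adjusted p of 0.756 for both. All 4 mitochondrial and autophagy partners were lower, with *Vdac1* at -0.26 and *Vdac2* at -0.16, and became 0.12 and 0.024 without WT WD replicate 2.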

How the data were processed

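The authors deposited estimated counts for RefSeq release 93 transcripts, without normalization, from rRNA-depleted mRNA sequenced on Ion Torrent and aligned by STAR (Partek Flow) to mm39. The 4 single-sample tables are identical to the columns of the whole table. The counter and its settings are not given in the sources used here. Gene counts had been assumed for the design, whereas the table holds 30930 transcripts. These were summed to 16339 genes by accession with a GRCm38.p6 RefSeq table used for names only, and rounded. The 39 unnamed transcripts, 0.347% to 2.49% of counts per library, were left out. Groups came from the sample titles. The paper states 3 mice per group for sequencing, and 2 libraries per group were analysed here.

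Genotypes were compared with edgeR 4.0.16 in R 4.3.3 (quasi-likelihood test, TMM, filterByExpr, Benjamini-Hochberg over 14344 genes). Calls required adjusted p below 0.05 and a change of 1.5-fold or more. CPM are TMM-scaled. Each SE is the log2 fold change divided by the root of F. Ratios were tested by exact permutation in Python 3.11.15 with scipy 1.17.1. Alternatives were DESeq2 1.42.0, limma 3.58.1 trend, RLE factors, library totals, other filters, a replicate block, transcripts, and each library left out. The labels do not pair same-numbered replicates, so they were not paired. The correlation of their deviations was 0.082. Since WT WD replicate 2 went against its tissue label, this value does not show whether a batch was shared. The fit was run on simulated counts beforehand as a check of the code, which does not show its power for these libraries. Coordinates and lengths are from GENCODE M39 on GRCm39, motif stretches from RefSeq on GRCm38.p6. Named genes are all members, *Tas1r3*, tested genes of the further BCL2 family and the 2 most abundant of each other list. *Cdkn1a* was added after its values were seen. The members and lists were chosen with earlier results of these data known.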

Additional observations from a re-analysis of the deposited data

How the results depend on the processing

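Leaving out WT WD replicate 2 turned the sign of the log2 fold change for *Bok*, *Bad*, *Bcl2l11* and *Bbc3*. Over libraries left out, it ranged from -1.96 to 0.033 for *Bok*, -0.48 to 0.050 for *Bad*, -0.90 to 0.26 for *Bcl2l11* and -0.11 to 0.082 for *Bbc3*. *Bbc3* also changed sign with library totals (0.0045) and without *Tas1r3*-/- WD replicate 2 (0.081), from a value near 0. The number of members called ranged from 0 to 2 over fits that left out 1 library, with 2 (*Bax* and *Bok*) only without WT WD replicate 1, and was 0 under every other setting tried. For the other pathway genes it ranged from 0 to 7 over such fits, with 7 without WT WD replicate 1 and 1 (*Cdkn1a*) without WT WD replicate 2, and DESeq2 called 1 (*Cdkn1a*) where edgeR called 0. Of the alternatives for single genes, 102 kept direction and side of the threshold, 6 changed sign and 2 passed the threshold. All ratios kept their direction under the alternatives run. The sign could not turn when 1 library was left out, because both *Tas1r3*-/- libraries lay below both WT libraries for every ratio. For *Bax* to *Bcl2*, the alternatives per transcript length and by mean log2 CPM gave the same value by construction. Over libraries left out, the log2 difference ranged from -0.70 to -0.51 for *Bax* to *Bcl2*, -1.25 to -0.49 for effectors to anti-apoptotic, -0.39 to -0.24 for BH3-only to anti-apoptotic and -0.89 to -0.37 for pro- to anti-apoptotic genes. With a replicate block, though the numbers share no known pairing (correlation of deviations 0.082), edgeR called 0 members and 0 other pathway genes, with *Bax* at -0.46 and *Bok* at -1.02. The ratio differences under the block are those of the unblocked test by construction. With 2 libraries per group, the 95% interval of each of the 10 members included 0, and a p that misses the threshold does not show that levels were equal.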
